A study of Triticum aestivum with 12 samples.

Results

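Leaf-restricted abundant transcripts are described here as the gene IDs with more than 100 TPM in all 4 leaf libraries and less than 5 TPM in all 8 axillary bud and shoot apex libraries, and 21 of the 107891 IDs met both limits. The members were thus chosen by their TPM in these same 12 libraries. TPM, a measure of relative transcript abundance, scale the reads of an ID to its length and to the library, so every library sums to the same total. The study used RNA-seq to follow the hexaploid winter wheat cultivar AK58 through vernalization in leaf, axillary bud and shoot apex, and each of the 6 groups had 2 libraries. The non-vernalized Leaf, Axillary bud and Shoot apex came from plants grown for 2 weeks after germination at 22 °C for 16 h of day and 19 °C for 8 h of night. The Vernalized leaf, Vernalized axillary bud and Vernalized shoot apex came from plants of this cultivar grown for 2 weeks in the same way. These plants were then held for 1 month at 4 °C with 16 h of light and 8 h of dark. After the cold they were kept in the greenhouse for 1 day. Buds and apices were dissected under a microscope, and leaves were taken directly. Vernalized plants were also older, so cold and age cannot be told apart. The sources used here do not say how many plants went into a library.

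Wheat has A, B and D sub-genomes, and many of its genes have a related copy on each of them. Winter wheat flowers readily only after a long period of cold, and leaves both sense conditions that control flowering and carry out photosynthesis, whereas axillary buds and the shoot apex hold meristems and young tissue. In an organ sampled whole, a lower level can come from fewer cells of a type or from less RNA per cell, which cannot be told apart here. The files give IDs without gene names and no ID matched the reference table of wheat genes, so no function is given to any member, no sequence is shown, and the tissue labels could not be checked against marker genes.

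The levels that chose the members are a description and were not tested. The lowest leaf value of a member exceeded its highest bud or apex value by between 24.2-fold (TraesCS6A02G000400) and 272-fold (TraesCS2D02G073700). TraesCS2D02G073700 had 409 and 234 TPM in Leaf, 239 and 362 in Vernalized leaf, at most 0.863 in any bud library and was listed at 0 in all 4 apex libraries. The members summed to 10529 and 5591 TPM in the Leaf libraries and to 8285 and 8173 TPM in Vernalized leaf. This was 0.806% ± 0.349 (SD, n = 2) of all TPM before vernalization and 0.823% ± 0.00789 (SD, n = 2) after it. The share of both vernalized leaf libraries therefore lay between those of the non-vernalized replicates. In the bud libraries the same IDs summed to between 18.6 and 49.8 TPM, and in the apex libraries to between 5.54 and 8.26 TPM.

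**Figure D1:**
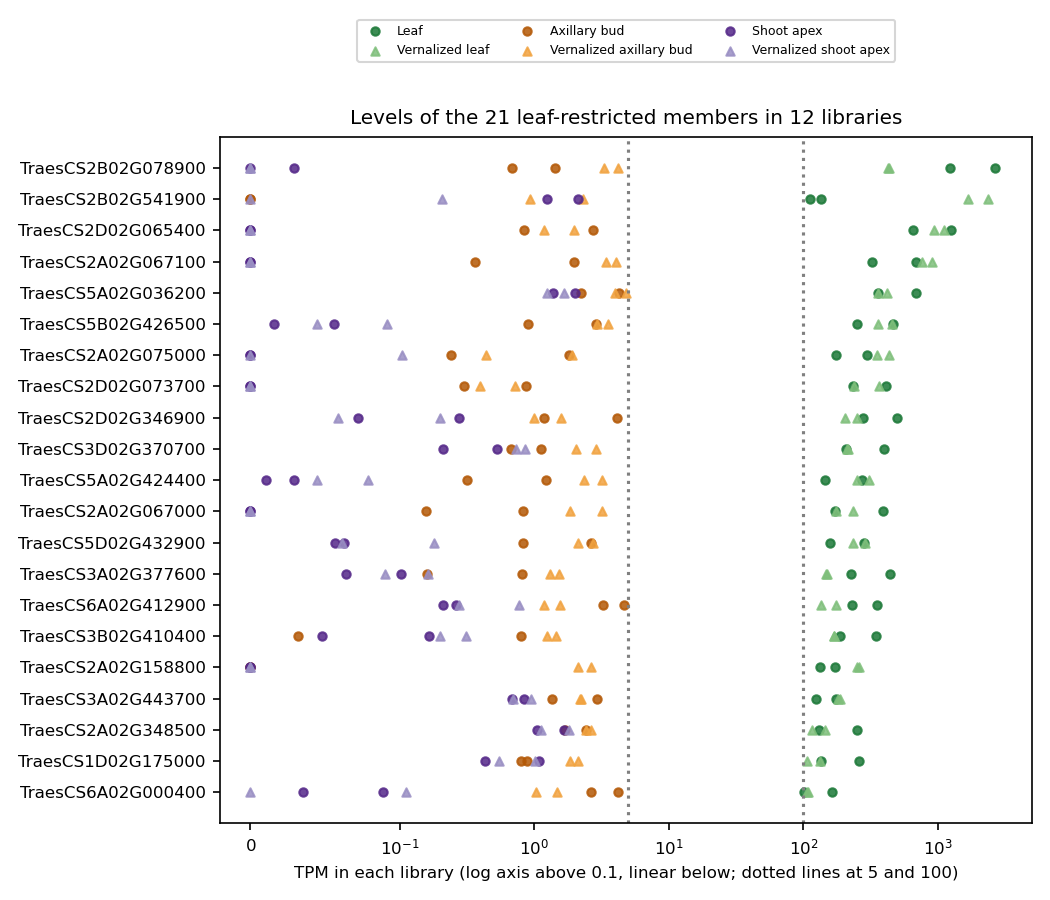
TPM of the 21 members (vertical axis, ordered by mean leaf level) in each of the 12 libraries, on a horizontal axis that is logarithmic above 0.1 TPM and linear below it. Circles are non-vernalized and triangles vernalized libraries, and the dotted lines at 5 and 100 TPM are the limits that chose the members. All leaf points lie above 100 TPM, and 14 members stay under 0.5 TPM in every shoot apex library.

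Near the leaf limit, TraesCS6A02G000400 (lowest leaf value 101 TPM) and TraesCS1D02G175000 (106 TPM) lay just inside, and TraesCS6D02G397200 (93.3 TPM) and TraesCS2B02G366900 (88.4 TPM) just outside. Near the limit for the other tissues, TraesCS5A02G036200 (highest value 4.78 TPM) and TraesCS6A02G412900 (4.65 TPM) lay inside, and TraesCS2A02G067200 (5.22 TPM) and TraesCS2B02G079400 (5.28 TPM) outside. The leaf limit alone was met by 368 IDs. The highest bud or apex value of the other 347 ranged from 5.22 to 2064 TPM with a median of 63.2 TPM, and for 284 of them it was found in a non-vernalized bud library. Membership also rested on the requirement for both conditions. Before vernalization 59 IDs met the limits in leaf, of which 38 were not over 100 TPM in both vernalized leaf libraries, and after vernalization 124 met them, of which 103 were not over 100 TPM in both non-vernalized libraries.

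Libraries of a group differed before any comparison between groups. Leaf replicate 1 was higher than Leaf replicate 2 for 20 of the 21 members, with a median ratio of 1.87 and a range of 0.828 to 2.27. The exception was TraesCS2B02G541900. The median ratio was 1.33 over the other 347 leaf-abundant IDs and 0.901 over the 43518 IDs above 1 TPM in both Leaf libraries, and it was 0.966 for the members in Vernalized leaf. Leaf replicate 1 held the highest of the 4 leaf values for 14 members, and Leaf replicate 2 the lowest for 12. In Axillary bud, replicate 1 was above replicate 2 for all 19 members not listed at 0 in both, with a median ratio of 3.19. Replicate 1 was also higher for 91.4% of the other 347 leaf-abundant IDs (median ratio 1.19). Over all IDs above 1 TPM in both libraries it was higher for 66.7% (median ratio 1.08). In Axillary bud replicate 2, 15 members were under 1 TPM, so these medians compare unlike levels. The labels give no batch, and the part of these replicate differences in the results was not tested. The study calls the libraries of a group biological replicates, but the sources used here do not say whether they came from separate plants, so p-values measure the spread between these libraries, which may in part be technical. TPM keep no read depth, so the depth behind each value is unknown and no counting interval can be given. A value of 0 is given as listed at 0.

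The comparison of Vernalized leaf with Leaf addresses how far these abundant leaf transcripts moved through the cold treatment. In leaf 1 member rose, 2 fell, and the other 18 differed by less than 2-fold and were not called. These counts hold for the deposited TPM, whereas after median-of-ratios rescaling of the libraries 14 were called higher and 0 lower. TraesCS2B02G541900 had by far the largest change, and TraesCS2B02G078900, the most abundant member before vernalization, had the largest fall as deposited. Calls required an unadjusted p under 0.01 and a fold change above 2 in limma on log2(TPM + 1). Among the 60326 IDs tested, 12.3% were called higher and 46.2% lower (12.5% and 46.6% at an adjusted p under 0.05). Their median log2 fold change was -0.90, against -0.26 over the members and -0.12 over the other 347 leaf-abundant IDs. Of those 347, 77 were called higher and 78 lower. The rule holds every member above 100 TPM in both conditions and so bounds how far a member can fall, and these counts were not compared by a test. The study, with DESeq2 on read counts at the same thresholds, reported more induced than repressed genes in leaf. The deposited TPM gave the opposite balance over all tested IDs, whereas after rescaling 23.1% were called higher and 17.0% lower. Why they differ was not tested.

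TraesCS2B02G541900 had 112 and 135 TPM in Leaf and 2355 and 1663 TPM in Vernalized leaf. Both vernalized libraries were far above both others, and the replicates differed much less than the groups. Its log2 fold change was 4.00 ± 0.29 (SE), with an adjusted p of 3.34e-07 (limma, Benjamini-Hochberg over all tested IDs). Among all IDs of a library it ranked 1087 and 965 before vernalization and 52 and 116 after it. It kept this call and direction under every alternative processing that was run.

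TraesCS2B02G078900 had 2644 and 1238 TPM in Leaf and 424 and 432 TPM in Vernalized leaf. The groups did not overlap, although the 2 Leaf libraries themselves differed by 2.14-fold. The log2 fold change was -2.08 ± 0.32 (SE), with an adjusted p of 9.5e-05 (limma, Benjamini-Hochberg). Its rank moved from 17 and 32 to 299 and 297. After the libraries were rescaled by median-of-ratios factors, computed from 21695 IDs above 1 TPM in every library, the value was -0.56 and the call was lost.

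TraesCS3A02G377600 had 437 and 224 TPM in Leaf and 146 and 148 TPM in Vernalized leaf. Both vernalized values lay below both others and were close to each other. The log2 fold change was -1.08 ± 0.30 (SE), with an adjusted p of 0.00643 (limma, Benjamini-Hochberg). This call was lost, among others, without Leaf replicate 1 (-0.60), and after rescaling the value was 0.43.

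**Figure D2:**
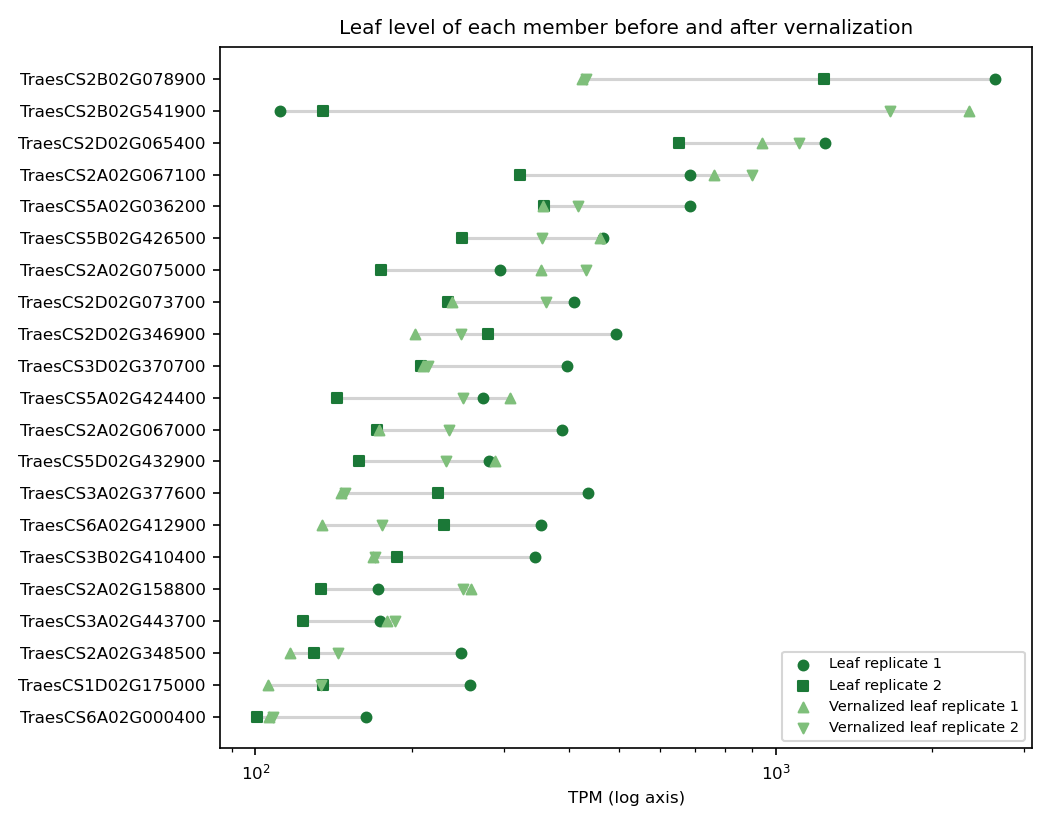
TPM of each of the 21 members (vertical axis) in the 4 leaf libraries, on a logarithmic horizontal axis. Circles and squares are Leaf replicates 1 and 2, upward and downward triangles are Vernalized leaf replicates 1 and 2, and the grey line spans the 4 values. TraesCS2B02G541900 moves from 112 and 135 to 2355 and 1663 TPM, while for 10 members the groups overlap.

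The 18 members that were not called had log2 fold changes between -0.90 and 0.81, with standard errors of 0.21 to 0.41. Among them, 2 passed the p threshold but not the fold threshold. TraesCS2A02G158800 had 172 and 134 TPM in Leaf and 260 and 251 in Vernalized leaf, a log2 fold change of 0.75 with an adjusted p of 0.00584 (limma). TraesCS6A02G412900 had 355 and 231 TPM in Leaf and 134 and 175 in Vernalized leaf, a log2 fold change of -0.90 with an adjusted p of 0.0109 (limma). The groups did not overlap for either ID. The smallest fitted differences were those of TraesCS2D02G073700 (-0.08), TraesCS2D02G065400 (0.18), TraesCS5B02G426500 (0.24) and TraesCS6A02G000400 (-0.26).

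TraesCS2D02G065400, next in mean leaf level after TraesCS2B02G078900 and TraesCS2B02G541900, had 1248 and 653 TPM in Leaf and 940 and 1111 TPM in Vernalized leaf, and both vernalized values lay between the others. TraesCS5B02G426500 had 466 and 249 TPM in Leaf and 459 and 356 TPM in Vernalized leaf, and TraesCS5A02G036200 had 685 and 358 TPM against 357 and 418 TPM. In these members, as in 10 of the 21, the groups overlapped. Both vernalized libraries were above both others for 5 members and below them for 6, where 19.8% and 67.8% of all tested IDs did so. Besides the IDs above, the vernalized values were the higher ones for TraesCS2A02G067100, TraesCS2A02G075000 and TraesCS3A02G443700 and the lower ones for TraesCS2D02G346900, TraesCS3B02G410400 and TraesCS1D02G175000.

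The direction of most members in leaf depended on the scale. The rescaling factors were 1.54 and 1.75 for Leaf and 0.623 and 0.530 for Vernalized leaf, and rescaling moved the median log2 fold change of all IDs from -0.90 to -0.02. The 14 higher and 0 lower calls on that scale stood beside 23.1% and 17.0% of the 59825 IDs tested. No member was lower at an unadjusted p under 0.05 either (limma), and the median over the members was 1.25. Dividing by the factors lowers the limit of 100 TPM in Leaf and raises it in Vernalized leaf. The rule thus favours higher values on that scale and bounds how far a member can fall. These counts were not compared by a test. TraesCS2B02G541900 was called higher on both scales. Of the 12 members with a value below 0 as deposited, 11 had a value above 0 after rescaling, and TraesCS2B02G078900 stayed below it.

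Shares within the members' own sum do not depend on such a factor. TraesCS2B02G078900 made up 25.1% and 22.1% of the sum in Leaf and 5.11% and 5.29% in Vernalized leaf. TraesCS2B02G541900 made up 1.06% and 2.41% in Leaf and 28.4% and 20.4% in Vernalized leaf. The most abundant member was thus the former in both Leaf libraries and the latter in both Vernalized leaf libraries. The next in mean level, TraesCS2D02G065400, held 11.9% and 11.7% before and 11.3% and 13.6% after, which overlap. The share of both vernalized libraries was above that of both others for 6 members, below it for 11 and overlapping for 4. A share falls when another member's rises, so these counts are not independent of TraesCS2B02G541900.

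**Figure D3:**
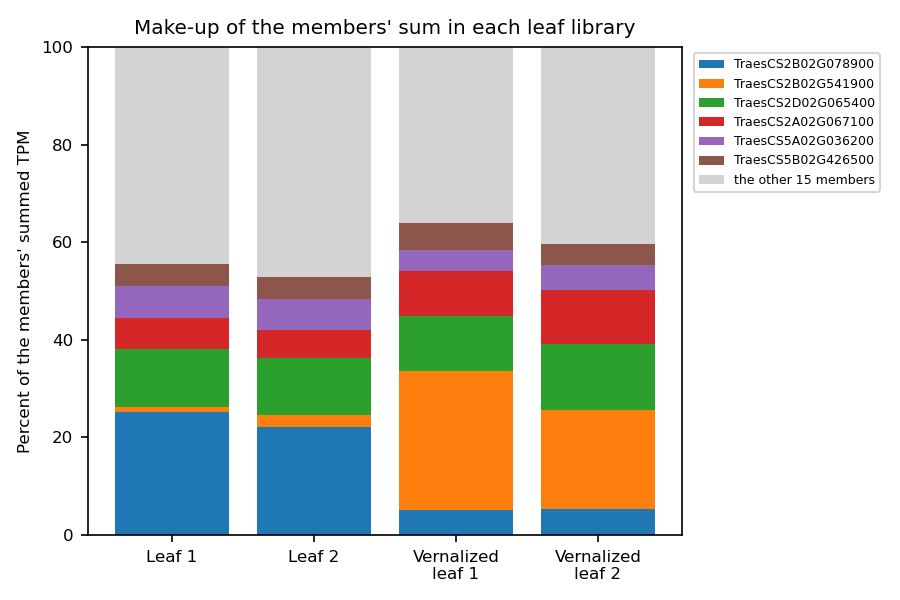
Percent of the members' summed TPM (vertical axis, stacked from 0 to 100) held by the 6 members highest in mean leaf level and by the other 15 together, in each of the 4 leaf libraries. TraesCS2B02G078900 (bottom) goes from 25.1% and 22.1% to 5.11% and 5.29%, and TraesCS2B02G541900 (second from the bottom) from 1.06% and 2.41% to 28.4% and 20.4%.

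In axillary bud, where the rule keeps all values under 5 TPM, vernalization was accompanied by small differences in these low levels. Of the 21 members 6 rose and 1 fell, and every member's highest bud value was above its highest apex value. Outside leaf, the highest value of the other 347 leaf-abundant IDs was in Axillary bud for 284 and in Vernalized axillary bud for 43. It was in Shoot apex for only 20, so a higher bud value was not particular to the members. Of all tested IDs, 11.4% were called higher in bud and 3.40% lower (11.6% and 3.43% at an adjusted p under 0.05). The median log2 difference was 0.63 over the members and 0.29 over all tested IDs. It was -1.25 over the other 347 leaf-abundant IDs, of which 18 were called higher and 198 lower, but the limit of 5 TPM removed IDs that were higher in bud before or after vernalization. All differences here are on the log2(TPM + 1) scale, which understates the change of low levels.

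TraesCS2A02G158800 was listed at 0 in both Axillary bud libraries and had 2.62 and 2.11 TPM in Vernalized axillary bud, a fitted difference of 1.75 ± 0.21 (SE) with an adjusted p of 8.31e-05 (limma). TraesCS2B02G541900 was likewise listed at 0 in both and had 0.927 and 2.29 TPM after vernalization, a fitted difference of 1.33 with an adjusted p of 0.00589 (limma). No fold is given for either, since the non-vernalized libraries are listed at 0. Both rose in bud, and TraesCS2B02G541900 also rose in leaf.

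TraesCS2B02G078900 had 1.43 and 0.68 TPM in Axillary bud and 3.31 and 4.16 TPM in Vernalized axillary bud, a difference of 1.22 with an adjusted p of 0.0147 (limma). The ID that fell in leaf as deposited was therefore higher in both vernalized bud libraries. TraesCS2A02G067000 had 0.817 and 0.157 TPM before and 3.16 and 1.84 TPM after, a difference of 1.25 with an adjusted p of 0.0254 (limma). TraesCS2A02G067100, the next ID on chromosome 2A, had 1.97 and 0.36 TPM before and 4.01 and 3.42 TPM after, a difference of 1.23 with an adjusted p of 0.0316 (limma). Bud groups did not overlap for any of these IDs, but the non-vernalized replicates of the pair on 2A differed by a larger ratio than the vernalized ones. TraesCS5A02G424400 had 1.21 and 0.314 TPM before and 3.17 and 2.35 TPM after, a difference of 1.13 with an adjusted p of 0.0221 (limma).

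TraesCS6A02G412900 was the member that fell in bud, from 4.65 and 3.26 TPM to 1.55 and 1.18 TPM. The groups did not overlap, and the difference was -1.06 ± 0.28 (SE), with an adjusted p of 0.0148 (limma). TraesCS6A02G000400 had 4.16 and 2.64 TPM before and 1.48 and 1.02 TPM after, a difference of -0.95 that passed the p threshold (adjusted p 0.0204, limma) but not the fold threshold. These are the 2 members on chromosome 6A.

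Across all members, both vernalized bud libraries lay above both others for 11 and below them for 2, where 59.0% and 19.6% of all tested IDs did so. The fit shares 1 spread per ID over all tissues, so the bud p-values also measure spread in leaf and apex. Fitted on bud alone, 5 members were called higher and 1 lower. The bud counts also rested on single libraries. Without Axillary bud replicate 1, 8 members were called higher and 0 lower, and without Axillary bud replicate 2, 2 were called higher and 3 lower. Without Vernalized axillary bud replicate 1, 3 were called higher, and without Vernalized axillary bud replicate 2, 2 higher and 0 lower. After rescaling, 2 were called higher (TraesCS2A02G158800 and TraesCS2B02G541900) and 2 lower, where 6.23% and 5.31% of all IDs tested on that scale were called. TraesCS2A02G158800 kept its call under every alternative run.

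**Figure D4:**
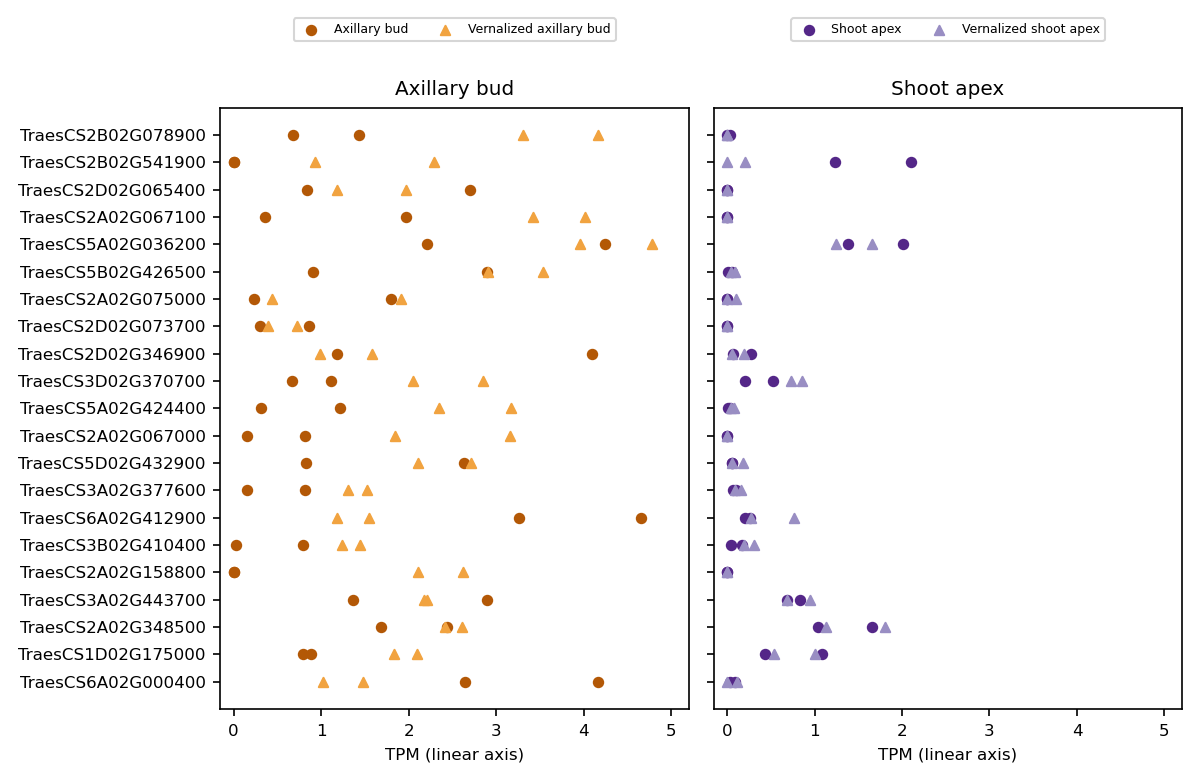
TPM of each of the 21 members (vertical axis) in the 4 axillary bud libraries (left) and the 4 shoot apex libraries (right), on a linear horizontal axis. Circles are non-vernalized and triangles vernalized libraries. TraesCS2A02G158800 and TraesCS2B02G541900 sit at 0 in both Axillary bud libraries and above it in both Vernalized axillary bud libraries, and 5 members sit at 0 in all 4 shoot apex libraries.

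In shoot apex the members were lower still. Members listed at 0 in all 4 libraries numbered 5, namely TraesCS2D02G065400, TraesCS2A02G067100, TraesCS2D02G073700, TraesCS2A02G067000 and TraesCS2A02G158800. All of them lie on chromosomes 2A and 2D, which hold 5 and 3 of the 21 members. Some of the 5 belong to runs of neighbouring IDs described below. Counting the 5, 14 stayed under 0.5 TPM in every apex library, and 4 exceeded 1 TPM in at least 1. TraesCS5A02G036200 (2.01 and 1.38 TPM before, 1.66 and 1.25 TPM after) and TraesCS2A02G348500 (1.66 and 1.05 TPM before, 1.81 and 1.13 TPM after) exceeded 1 TPM in all 4. For both of these the groups overlapped.

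After vernalization 0 members were called higher in apex and 1 lower (limma), where 1.12% and 2.44% of all tested IDs were called (0.991% and 2.13% at an adjusted p under 0.05). A call needs a fitted difference above 1 on log2(TPM + 1). An ID at or below 1 TPM in all 4 apex libraries cannot reach it. Only 4 members exceeded 1 TPM in any apex library, so these counts were largely set by the low levels and cannot be weighed against those shares. At an unadjusted p under 0.05 the counts were again 0 and 1. The member that fell was TraesCS2B02G541900, with 1.24 and 2.10 TPM in Shoot apex against 0.205 TPM in 1 Vernalized shoot apex library and a listing at 0 in the other. The groups did not overlap, and the difference was -1.26 ± 0.29 (SE), with an adjusted p of 0.031 (limma, Benjamini-Hochberg). The call was lost without Shoot apex replicate 2 (-1.03) and without Vernalized shoot apex replicate 1 (-1.13). Both vernalized libraries were above both others for 4 members and below them for 1, where 8.59% and 18.3% of all tested IDs did so. The bud response was above the apex response for 2 members and below it for 1 by limma's test of the difference, where 13.2% and 3.20% of all tested IDs were called. Where the apex values lie near 0, this difference mostly restates the bud response.

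The members were not spread evenly over the genome. By the chromosome that each ID carries, 11 lay in the A, 4 in the B and 6 in the D sub-genome, where the tested IDs divided as 33.1%, 32.0% and 33.8%. Chromosomes 2A, 2B and 2D held 10 of the 21 (47.6%), against 16.3% of the tested IDs and 26.6% of the 368 leaf-abundant IDs. Groups 4 and 7 held 0. These shares are a description of a small set. On the group 3 chromosomes TraesCS3A02G377600, TraesCS3B02G410400 and TraesCS3D02G370700 had leaf log2 fold changes of -1.08, -0.58 and -0.43, of which only the first was called. The other member there, TraesCS3A02G443700, went the other way (0.32) and was not called. On the group 5 chromosomes TraesCS5A02G424400, TraesCS5B02G426500 and TraesCS5D02G432900 had 0.49, 0.24 and 0.29, and none was called. There too the remaining member, TraesCS5A02G036200, went the other way (-0.36) and was not called. Whether these IDs are copies of each other was not established, because none of the 1998 sub-genome triads that could be read held a member.

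Among the members, 4 had another leaf-abundant ID within 5 places in the order of IDs, and they belonged to runs on chromosomes 2A, 2B and 2D. That was 19.0% of the members, against 9.80% of the other leaf-abundant IDs (34 of 347) and 3.70% of all tested IDs. These runs were chosen after their values were seen, and no test was made on them. The run on 2A holds 7 consecutive IDs from TraesCS2A02G066700 to TraesCS2A02G067300, all over 100 TPM in every leaf library, with the members TraesCS2A02G067000 and TraesCS2A02G067100. The run on 2B holds 6 IDs from TraesCS2B02G078900, itself a member, to TraesCS2B02G079500. The run on 2D holds 6 IDs from TraesCS2D02G065100 to TraesCS2D02G065600, of which 5 were over 100 TPM in every leaf library and TraesCS2D02G065400 is a member. The other abundant IDs of the runs missed the limit only in bud, where the highest values were 39.3, 66.8 and 27.4 TPM, while their highest apex values were 0.285, 1.75 and 0.11 TPM. Whether IDs of a run share sequence, so that reads could be divided between them, was not tested.

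Each run was divided, after its values were seen, where the sign of the fitted leaf difference changed. On 2A the first 4 IDs had log2 fold changes from -1.51 to -0.36 and the last 3 from 0.65 to 0.81. On 2B the first 4 had -2.08 to -0.88 and the last 2 had 0.94 and 1.11. On 2D the first 3 leaf-abundant IDs had -1.39 to -0.66 and the last 2 had 0.18 and 0.84. After rescaling these values shift upward together, so that all but TraesCS2B02G078900 lie above 0. Each library is divided by its own factor for all IDs, so the gap between the first and the last IDs could hardly change. On that scale the highest of the first IDs were at 1.16, 0.64 and 0.85 and the lowest of the last at 2.16, 2.45 and 1.69. The summed TPM of the last over the first IDs, which does not depend on the scale, was 0.387 and 0.42 in Leaf and 1.22 and 1.32 in Vernalized leaf on 2A. The ratios on 2B were 0.27 and 0.261 against 1.19 and 1.32, and those on 2D were 0.296 and 0.334 against 0.918 and 1.03. Since the division was placed at the change of sign, a higher ratio after vernalization is fixed by that choice, and the ratios describe only its size in each library.

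The boundary on 2A falls between the adjacent members. TraesCS2A02G067000 had 389 and 172 TPM in Leaf and 173 and 235 TPM in Vernalized leaf, and TraesCS2A02G067100 had 684 and 323 TPM and then 760 and 900 TPM. Neither was called. The ratio of the latter to the former was 1.76 and 1.88 in Leaf and 4.39 and 3.83 in Vernalized leaf. The pair was picked for its opposite signs, so the direction of this difference restates the choice.

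**Figure D5:**
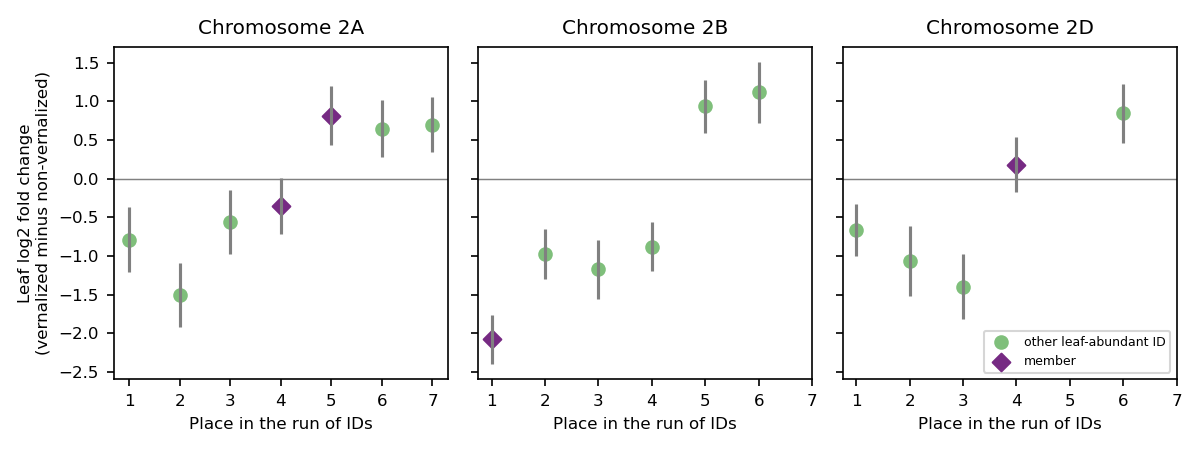
Leaf log2 fold change, Vernalized leaf minus Leaf on the log2(TPM + 1) scale (vertical axis, bars are standard errors), of the leaf-abundant IDs against their place in each run (horizontal axis) on chromosomes 2A, 2B and 2D. Diamonds are members and circles other leaf-abundant IDs, and the ID at place 5 on 2D is left out because it is not leaf-abundant. On the deposited scale the first 4, 4 and 3 IDs lie below 0 and the later ones above it, whereas after rescaling all but TraesCS2B02G078900 lie above 0.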

How the data were processed

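TPM of 12 RNA-seq libraries (6 groups of 2, grouped by the labels) were used as deposited by the authors. Per the study's methods and the submitters' processing notes, reads were trimmed with fastp 0.21.0, aligned with hisat2 to IWGSC RefSeq v1.0, handled with SAMtools 1.3.1 and converted to TPM with TPMCalculator. Here, IDs whose mean exceeded 1 TPM in any group (60326, including all 21 members) were fitted on log2(TPM + 1) with limma 3.58.1 in R 4.3.3, with 1 coefficient per group over all 12 libraries, trended empirical Bayes moderation and two-sided tests. Calls used an unadjusted p under 0.01 and a fold change above 2, the study's thresholds. At a Benjamini-Hochberg adjusted p under 0.05 the same numbers of members were called. All 21 members are named, with the IDs at the edges of the limits; the neighbours in the runs were chosen after their values were seen. Members and lists were chosen with earlier results of these data known. The leaf contrast against bud and apex chose the members and was not tested. Identical libraries were not found (0 pairs). The model was run on simulated data with normal noise and 1 spread per ID in all groups. That is the model's own assumption, so the run says nothing about groups of unequal spread. The alternatives are given in the closing section. Tables and figures used Python 3.11.15.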

Additional observations from a re-analysis of the deposited data

Results flagged for a closer look

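For 3 of the 21 members the fitted response to vernalization differed between axillary bud and shoot apex. Bud was above apex for 2 and below it for 1. This used limma's test of the difference (adjusted p under 0.05 over all tested IDs and a difference above 1 on the log2(TPM + 1) scale). Of all tested IDs 13.2% and 3.20% met the same criteria, so the members' count is near that of all IDs. The bud response minus the apex response was 2.59 for TraesCS2B02G541900 (1.33 in bud and -1.26 in apex, adjusted p 0.000936). It was 1.75 for TraesCS2A02G158800, which was listed at 0 in all 4 apex libraries (adjusted p 0.00124), and -1.34 for TraesCS6A02G412900 (-1.06 in bud and 0.28 in apex, adjusted p 0.0334). All of these values rest on levels under 5 TPM. For TraesCS2A02G158800 the apex response is 0 because every apex value is listed at 0, so the difference repeats its bud value. As 14 members stayed under 0.5 TPM in every apex library, for these the difference mostly restates the bud response.

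For 6 members both vernalized libraries moved one way in leaf and the opposite way in another tissue, and these differences were not tested because leaf against bud and apex is the contrast that chose the members. This was so for 4 members between leaf and bud and for 3 between leaf and apex, where 42.0% and 9.75% of all tested IDs did the same, and 49.0% did so in either pair, so such opposite movement was common in these libraries. The leaf response minus the bud response was -3.30 for TraesCS2B02G078900, -1.82 for TraesCS3A02G377600, -1.37 for TraesCS3B02G410400 and -1.34 for TraesCS1D02G175000. The leaf response minus the apex response was 5.26 for TraesCS2B02G541900, -1.18 for TraesCS6A02G412900 and -0.77 for TraesCS3B02G410400. The directions are those of the deposited TPM. After rescaling, the sign of the leaf difference turned for all of these IDs except TraesCS2B02G541900 and TraesCS2B02G078900, and for the latter the rescaled leaf values of the groups overlapped (1713 and 707 against 680.4 and 816).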

How the results depend on the processing

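Median-of-ratios scaling changed most results: 14 members higher and 0 lower in leaf, 2 higher and 2 lower in bud, and a median leaf log2 fold change of 1.25. Leaf values that turned from below to above 0 were 0.86 (TraesCS1D02G175000), 1.16 (TraesCS2A02G067000), 1.04 (TraesCS2A02G348500), 1.44 (TraesCS2D02G073700), 0.79 (TraesCS2D02G346900), 0.43 (TraesCS3A02G377600), 0.93 (TraesCS3B02G410400), 1.08 (TraesCS3D02G370700), 1.16 (TraesCS5A02G036200), 1.25 (TraesCS6A02G000400) and 0.61 (TraesCS6A02G412900). With a pseudocount of 0.1, 1 member was lower in leaf and 2 in bud, and a fit of leaf alone also gave 1 lower; the cause was not tested. Other limits gave other numbers of members, with 73 at a leaf minimum of 50 TPM, 8 at 200 TPM, 1 at a bud and apex maximum of 1 TPM and 44 at 10 TPM. On rescaled TPM 19 IDs met the rule, of which 11 were among the 21.

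Leaving out each library in turn gave 1 to 2 members higher and 1 to 4 lower in leaf, 2 to 8 higher and 0 to 3 lower in bud, and 0 to 1 lower in apex. In leaf, 2 higher and 1 lower were called without Leaf replicate 1, 4 lower without Leaf replicate 2, and 1 lower without either Vernalized leaf replicate. The median leaf log2 fold change ranged from -0.60 to 0.23, and the share of the members in Leaf from 0.559% to 1.05%. Leaf values crossed 0 for TraesCS2A02G067000 (-0.94 to 0.23), TraesCS2D02G065400 (-0.29 to 0.64), TraesCS2D02G073700 (-0.48 to 0.33), TraesCS3D02G370700 (-0.90 to 0.0328), TraesCS5A02G036200 (-0.83 to 0.11), TraesCS5B02G426500 (-0.21 to 0.69), TraesCS5D02G432900 (-0.12 to 0.71) and TraesCS6A02G000400 (-0.60 to 0.0844). None of these was called.

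Nothing in the labels says that a replicate number marks a shared plant or day. The correlation of deviations between libraries of the same number was -0.07 in leaf, 0.01 in bud and 0.74 in apex. Since it was near 0 in leaf and bud, the numbers were not treated as a pairing, although libraries of the same number deviated together in apex. With the replicate block 1 member was higher and 2 lower in leaf, 6 higher and 1 lower in bud, and 0 higher and 1 lower in apex, as without it. The block was 1 coefficient shared by all tissues, so it can take up only part of a deviation found in apex alone. The unchanged apex counts therefore do not settle the effect of such a pairing there.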
